A study of Mus musculus with 6 samples.

Results

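The genes described here encode the invariant signalling chains of the T cell receptor, its coreceptors and surface proteins carried by T cells of the gut epithelium. The set comprised 10 genes taken by symbol, Cd3d, Cd3e, Cd3g, Cd247, Cd8a, Cd8b1, Cd4, Cd5, Itgae and Thy1, of 54446 genes in the count table. They are markers of the T lymphocytes that live between intestinal epithelial cells. Each had at least 18 reads in every one of the 6 libraries, and all 10 passed the filter on low counts. Reads were counted in epithelial cells released with EDTA and dithiothreitol from the mouse small intestine, which the sample titles call jejunum and the series text calls jejunum-ileum. Knockout mice (n = 3) were homozygous for a floxed Prkci allele and carried Villin-CRE, a recombinase driven by an epithelial promoter. Control mice (n = 3) were homozygous for the same floxed allele without Cre. Prkci encodes an atypical protein kinase C of the apical polarity complex, and the study asked how its loss alters enterocyte transcripts. Each library came from a different mouse, aged 3 to 4 months and co-housed, and the series text gives both sexes. Because Villin-CRE acts in epithelium, T cells in a knockout preparation keep the floxed allele, and the controls lack the recombinase as well as the deletion.

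The T cell receptor recognises peptide or other ligands through a variable heterodimer, either alpha with beta or gamma with delta, which has no signalling tail of its own. The CD3 gamma, delta and epsilon chains and the CD247 (zeta) chain assemble with it and carry the tyrosine motifs that are phosphorylated by LCK, after which ZAP70 binds. CD4 and CD8 bring LCK to the receptor by binding MHC class II and class I. Much of the T cell population of the gut epithelium consists of CD8-bearing cells held there by the integrin CD103, whose alpha chain is encoded by Itgae and which binds E-cadherin. Many of these cells carry a CD8 alpha homodimer in place of the CD8 alpha-beta heterodimer, and many carry a gamma-delta receptor.

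Library totals ran from 18972906 to 26687856 reads in knockouts and from 22453798 to 23008047 reads in controls. Prkci stood at 21.5, 14.6 and 21.4 CPM (read counts per 1e6 of the scaled library) in knockout replicates 1 to 3 and 44.6, 46.9 and 44.0 CPM in control replicates 1 to 3, with a log2 fold change of −1.24 (SE 0.17) and an edgeR adjusted p of 0.0719. On the first principal component knockout replicate 1 lay at −21.9, against 68.0 and 50.9 for the other knockouts and −33.3, −33.3 and −30.4 for the controls, so counts are also given without that library. Xist and Ddx3y counts went against the sex in the series text for 3 libraries, and by these transcripts 2 knockouts and 1 control were female. Loci that overlap ribosomal RNA repeats took 4.89 to 5.91% of reads in knockouts and 2.16 to 2.91% in controls, and their part in the results below was not tested. The 7 epithelial markers summed to 13826 to 19272 CPM in knockouts and 13741 to 14553 CPM in controls, so the epithelial label held in every library. In bulk RNA of this kind, fewer cells of a type and less RNA per cell cannot be told apart.

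The CD3 genes lie together on chromosome 9 (build mm10), and the sequences before their start sites are shown as description only. Cd3d (+ strand) and Cd3g (− strand) point away from each other with 1355 bases between their gene starts, and Cd3e (− strand) starts 27841 bases from Cd3d. Below are the 250 bases before the start site of each CD3 gene and of Cd247, from RefSeq on GRCm38.p6. A start site was matched for 6 of the 10 genes. Capitals mark matches, on either strand, to a motif of factors active in T cells.
Cd3d, chr9:44981536-44981785 (+): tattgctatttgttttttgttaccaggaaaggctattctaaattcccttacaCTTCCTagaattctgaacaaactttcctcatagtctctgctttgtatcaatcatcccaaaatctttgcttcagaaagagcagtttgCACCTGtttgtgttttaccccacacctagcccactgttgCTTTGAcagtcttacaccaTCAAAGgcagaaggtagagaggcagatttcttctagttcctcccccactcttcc
Cd3g, chr9:44980432-44980681 (−): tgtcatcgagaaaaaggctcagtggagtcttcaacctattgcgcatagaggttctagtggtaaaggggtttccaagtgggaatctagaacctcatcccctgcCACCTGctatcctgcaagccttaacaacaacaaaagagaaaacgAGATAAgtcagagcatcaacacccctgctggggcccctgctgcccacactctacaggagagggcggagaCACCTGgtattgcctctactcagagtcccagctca
Cd3e, chr9:45009612-45009861 (−): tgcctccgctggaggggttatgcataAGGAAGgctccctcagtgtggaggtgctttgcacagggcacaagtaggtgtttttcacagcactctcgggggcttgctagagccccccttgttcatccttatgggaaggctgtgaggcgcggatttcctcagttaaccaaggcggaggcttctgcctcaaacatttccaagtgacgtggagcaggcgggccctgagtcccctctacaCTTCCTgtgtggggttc
Cd247, chr1:165788431-165788680 (+): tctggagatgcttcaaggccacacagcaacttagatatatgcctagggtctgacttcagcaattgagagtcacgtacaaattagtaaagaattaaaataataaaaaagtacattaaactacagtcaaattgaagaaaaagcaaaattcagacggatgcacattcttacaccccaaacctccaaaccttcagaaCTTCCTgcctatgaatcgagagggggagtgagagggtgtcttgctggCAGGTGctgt
The motifs searched were the Ets core AGGAAG, the E-box CAGNTG, the Gata motif AGATAA, the Tcf motif CTTTGA and the Runx forms TGTGGT and also TGCGGT. Among these 4 sequences no matches overlapped. The Cd3d window held an Ets match, an E-box and 2 Tcf matches, at 73 and 54 bases before the start, and the Cd3g window held 2 E-boxes and a Gata match. The Cd3e window held 2 Ets matches, at 224 and 17 bases before the RefSeq start, and the Cd247 window an Ets match and an E-box. For Cd3e the RefSeq start differs from the gene start used for the distance above, which is 45009627 in the count table. Most of the Cd3e match at 17 bases therefore lies inside the gene as the count table places it. Over 32841 mouse start sites, windows of the same length held the Ets core in 29.5%, the E-box in 44.8%, the Gata motif in 9.99%, the Tcf motif in 13.8%, TGTGGT in 14.0% and TGCGGT in 5.10%. The matches are descriptions of letters, with no measurement of binding, and their part in the levels of these genes was not tested.

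The means of Cd3d, Cd3e and Cd3g in knockouts were 1.90, 1.86 and 1.97 times those in controls, and none of these differences passed the edgeR quasi-likelihood test with Benjamini-Hochberg adjustment over all 15068 genes tested (threshold 0.05). Cd3e, which encodes the epsilon chain shared by both CD3 dimers, had 20.8, 42.2 and 22.0 CPM in knockout replicates 1 to 3 and 19.9, 15.2 and 10.5 CPM in control replicates 1 to 3. Knockout replicate 2 was highest, and the lowest knockout lay just above the highest control. This gave a log2 fold change of 0.90 (SE 0.34), for which the edgeR adjusted p was 0.261. Cd3g, the gamma chain gene, had 15.0, 26.1 and 16.3 CPM in knockouts and 12.5, 9.50 and 7.24 CPM in controls. The groups did not overlap, and the log2 fold change was 0.98 (SE 0.28, edgeR adjusted p = 0.182). Cd3d, the delta chain gene, had 4.25, 9.45 and 4.24 CPM in knockouts and 4.62, 2.79 and 2.05 CPM in controls. For Cd3d, control replicate 1 lay above knockout replicates 1 and 3, and the log2 fold change was 0.92 (SE 0.43, edgeR adjusted p = 0.337).

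Cd247 (chromosome 1, 165788681 to 165877277) encodes the zeta chain, which carries more phosphorylation motifs than any CD3 chain. It had 40, 76 and 49 reads in knockouts and 46, 21 and 18 reads in controls. On the scaled level this was 2.02, 3.31 and 1.96 CPM in knockouts and 2.02, 0.875 and 0.753 CPM in controls. The groups overlapped through control replicate 1, and the log2 fold change was 1.00 (SE 0.44, edgeR adjusted p = 0.319). Its exons share 3007 bases with those of Pou2f1 on the other strand, and the strand setting of the counts is not given in the sources used here. Pou2f1, which encodes the widely expressed factor OCT1, averaged 41.6 ± 3.74 CPM in knockouts and 47.3 ± 2.57 CPM in controls (SD, n = 3 each), a log2 fold change of −0.19. Without strand, reads of these genes cannot be told apart in the shared exons.

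Mean levels of the CD8 genes in knockouts were 2.01 (Cd8a) and 1.97 (Cd8b1) times those in controls, without passing the test. Cd8a, the alpha chain gene that can act as a homodimer, had 31.2, 54.5 and 36.0 CPM in knockout replicates 1 to 3 and 25.4, 19.8 and 15.3 CPM in control replicates 1 to 3. Every knockout lay above every control. The mean was 40.6 ± 12.3 CPM in knockouts and 20.2 ± 5.09 CPM in controls (SD, n = 3 each), with a log2 fold change of 1.01 (SE 0.26, edgeR adjusted p = 0.161). Cd8b1, the beta chain gene, which needs the alpha chain to reach the surface, lies on the same strand 50639 bases away. It had 41, 62 and 55 reads in knockouts and 38, 24 and 21 reads in controls. On the scaled level this was 2.07, 2.70 and 2.20 CPM in knockouts and 1.67, 1.00 and 0.879 CPM in controls. The groups did not overlap, and the log2 fold change was 0.97 (SE 0.32, edgeR adjusted p = 0.213).

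Cd4, the coreceptor gene for MHC class II, stood at 2.68, 3.92 and 1.92 CPM in knockouts and at 0.924, 1.92 and 0.795 CPM in controls. The groups met between knockout replicate 3 and control replicate 2, whose values come from 48 and 46 reads, and the log2 fold change was 1.22 (SE 0.43, edgeR adjusted p = 0.236). CD4 is also carried by some innate lymphoid cells, and by macrophages and dendritic cells in some species. The summed level of 11 macrophage and dendritic cell markers was 42.6, 31.8 and 36.2 CPM in knockouts and 16.7, 15.8 and 16.0 CPM in controls. This sum was higher in every knockout than in every control, but edgeR passed 0 of the 8 markers tested. The part of these cells in the Cd4 values was not tested.

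Cd5, a scavenger-receptor protein that dampens receptor signalling and is lower on many CD8 alpha-alpha cells, had the largest fold among the 10 genes, with a knockout mean 2.70 times that of controls. It had 53, 85 and 70 reads in knockouts and 28, 30 and 22 reads in controls. On the scaled level this was 2.68, 3.70 and 2.80 CPM in knockouts and 1.23, 1.25 and 0.921 CPM in controls. Every knockout lay above every control, and the lowest knockout was above the highest control by more than the whole range of the controls. This gave a log2 fold change of 1.43 (SE 0.26), for which the edgeR adjusted p was 0.109. Among the 10 genes this was the lowest adjusted p, and it did not pass.

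Itgae, which encodes the integrin alpha chain of CD103, and Thy1, a glycolipid-anchored protein of T cells, neurons and fibroblasts, were likewise above their control levels without passing the test. Itgae (chromosome 11, 73090583 to 73147446) had 31.8, 61.0 and 39.7 CPM in knockout replicates 1 to 3 and 28.1, 18.7 and 15.9 CPM in control replicates 1 to 3. Its groups did not overlap, and the log2 fold change was 1.08 (SE 0.30, edgeR adjusted p = 0.174). Thy1 (chromosome 9, 44043384 to 44048579) had 3.19, 4.36 and 2.20 CPM in knockouts and 1.50, 1.71 and 1.46 CPM in controls. Its groups did not overlap, the controls lay close together, and the log2 fold change was 1.06 (SE 0.30, edgeR adjusted p = 0.181). The sum of 7 fibroblast markers was 45.2, 2.92 and 21.0 CPM in knockouts and 1.98, 2.92 and 13.4 CPM in controls. The part of fibroblasts in the Thy1 values was not tested.

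**Figure D1:**
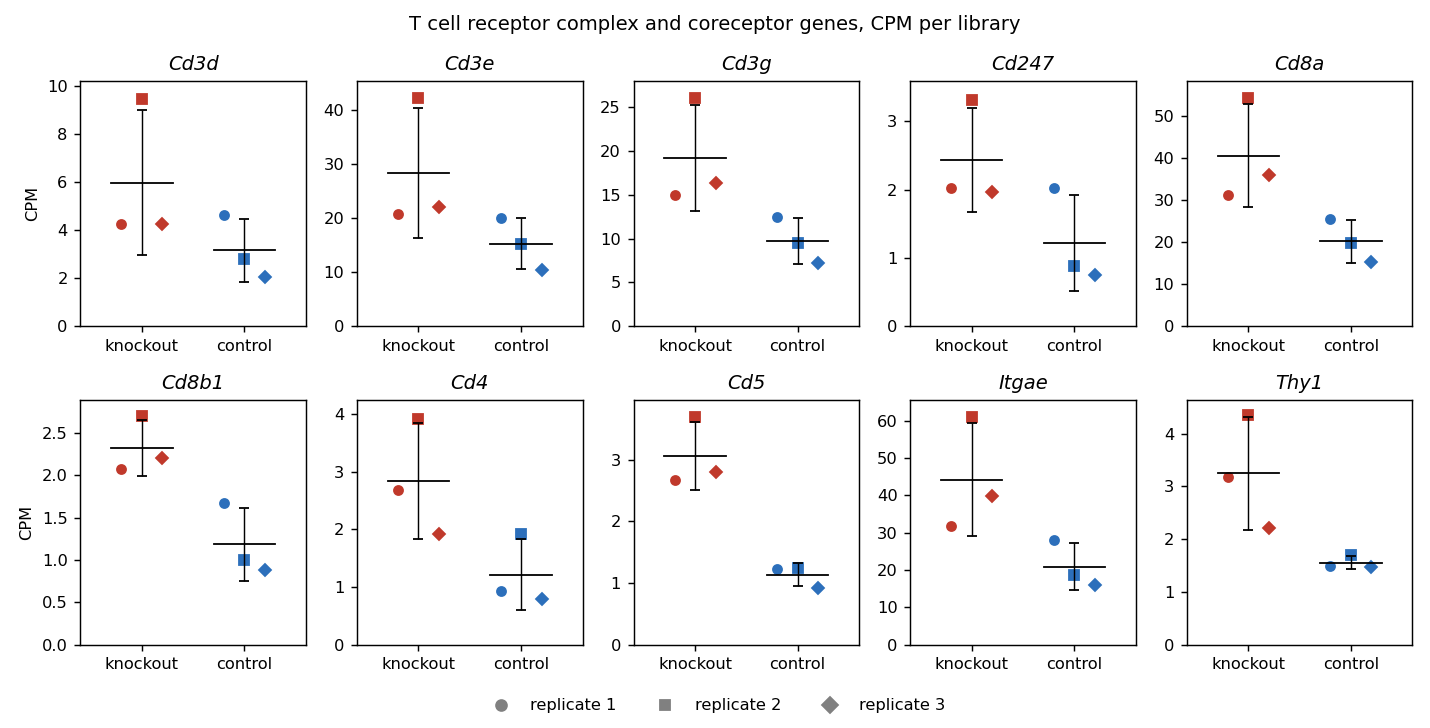
Level of each of the 10 genes in CPM, each on its own linear axis from 0, with knockout libraries to the left of control libraries; points are single libraries, lines group means and bars SD. Knockout replicate 2 is the highest library for every gene, and 8 of the 10 genes have no overlap between the groups.

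Across the 10 genes the edgeR test called 0 higher and 0 lower, where it called 0.0531% of all genes higher and 0.00664% lower. At an unadjusted p under 0.05, 8 of the 10 were higher, against 9.32% of all genes, and none was lower, against 7.09%. The exceptions were Cd3d and Cd247, the only 2 whose groups overlapped. Every knockout lay above every control for 8 of the 10, against 10% of all genes. All 10 log2 fold changes were positive, against 50.7% of all genes, and their median was 1.00, against 0.01 over all genes tested. DESeq2 passed 4 of the 10 as higher (3.61% of all genes), namely Cd3g, Cd8a, Cd5 and Itgae, with adjusted p of 0.0312, 0.0140, 0.00136 and 0.0185. Transcripts of 1 cell type share its abundance in a library, so these 10 genes are not independent of one another.

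The knockout libraries were uneven. Relative to the control mean, the median fold over the 10 genes was 1.60, 2.79 and 1.64 in knockout replicates 1 to 3, against 1.30, 0.977 and 0.743 in control replicates 1 to 3. All 10 genes exceeded the control mean in each knockout, whereas 8, 4 and 0 did so in control replicates 1 to 3. Without knockout replicate 1, edgeR passed the same 4 genes, Cd3g, Cd8a, Cd5 and Itgae, with log2 fold changes of 1.12, 1.17, 1.51 and 1.27 and adjusted p of 0.0312, 0.0189, 0.0119 and 0.0197. In that fit 10% of all genes passed as higher. Without knockout replicate 2, the median log2 fold change of the 10 genes was 0.77, with Cd3d at 0.44 and Cd3e at 0.51. Without control replicate 1, Cd247 was at 1.59.

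Per kilobase of exon, Cd8a and Itgae were the most abundant of the set in both genotypes. Cd8a averaged 11.2 ± 3.38 CPM per kilobase in knockouts and 5.54 ± 1.40 in controls, and Itgae 9.64 ± 3.30 in knockouts and 4.56 ± 1.40 in controls (SD, n = 3 each). Cd3e, Cd3g and Cd3d followed at 6.95, 5.86 and 3.30 CPM per kilobase in knockouts and 3.73, 2.98 and 1.74 in controls. Cd8b1 averaged 1.57 CPM per kilobase in knockouts and 0.798 in controls, and Thy1 averaged 1.08 in knockouts and 0.520 in controls. Cd4, Cd5 and Cd247 were lowest, at 0.705, 0.621 and 0.456 CPM per kilobase in knockouts and 0.301, 0.230 and 0.228 in controls. Each neighbouring pair in this order kept it in 6 of 6 libraries except Cd4 over Cd5, in 4 of 6, and Cd5 over Cd247, in 5 of 6. The gaps between Cd8a and Itgae, and between Cd3e and Cd3g, were smaller than the SD of either gene in both genotypes. Exon lengths come from GENCODE M21, which for Cd5 holds a later version of the gene model than the count table.

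The receptor chains that pair with CD3 are taken here chain by chain. Trac, the constant gene of the alpha chain, had 6.42, 14.8 and 9.45 CPM in knockouts and 6.73, 5.88 and 3.64 CPM in controls. Control replicate 1 lay above knockout replicate 1, and the log2 fold change was 0.92 (SE 0.35, edgeR adjusted p = 0.265). The beta chain gene Trbc1 had 2.83, 5.53 and 4.41 CPM in knockouts and 2.24, 2.21 and 1.26 CPM in controls, and Trbc2 had 6.07, 10.9 and 6.45 CPM in knockouts and 4.71, 2.75 and 2.34 CPM in controls. Neither beta gene overlapped between groups, and their log2 fold changes were 1.16 (SE 0.34) and 1.26 (SE 0.35), with edgeR adjusted p of 0.187 and 0.175.

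Trdc, the constant gene of the delta chain, had 4.86, 8.28 and 5.09 CPM in knockouts and 8.01, 3.58 and 3.31 CPM in controls. Control replicate 1 was nearly as high as the highest knockout, and the log2 fold change was 0.29 (SE 0.40, edgeR adjusted p = 0.732). That value was 0.84 without control replicate 1, and 0.017, 0.10 and 0.065 without knockout replicate 2, control replicate 2 and control replicate 3, so single libraries decide it. Of the gamma chain genes, Tcrg-C2 had 8.95, 14.9 and 13.3 CPM in knockouts and 8.54, 6.04 and 4.94 CPM in controls, with a log2 fold change of 0.93 (SE 0.27, edgeR adjusted p = 0.183) and no overlap. Tcrg-C1 and Tcrg-C4 overlapped between groups, with log2 fold changes of 0.67 (SE 0.36, edgeR adjusted p = 0.399) and 0.44 (SE 0.30, edgeR adjusted p = 0.491). The gamma constant genes are close copies, so how reads divided between them is uncertain. Tcrg-C3, with at most 8 reads in a library, was not tested. Of the 7 constant genes tested, edgeR passed 0. DESeq2 passed 3 as higher (Trbc1, Trbc2 and Tcrg-C2), against 3.61% of all genes, and edgeR without knockout replicate 1 passed 4, those 3 and Trac, against 10% of all genes.

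**Figure D2:**
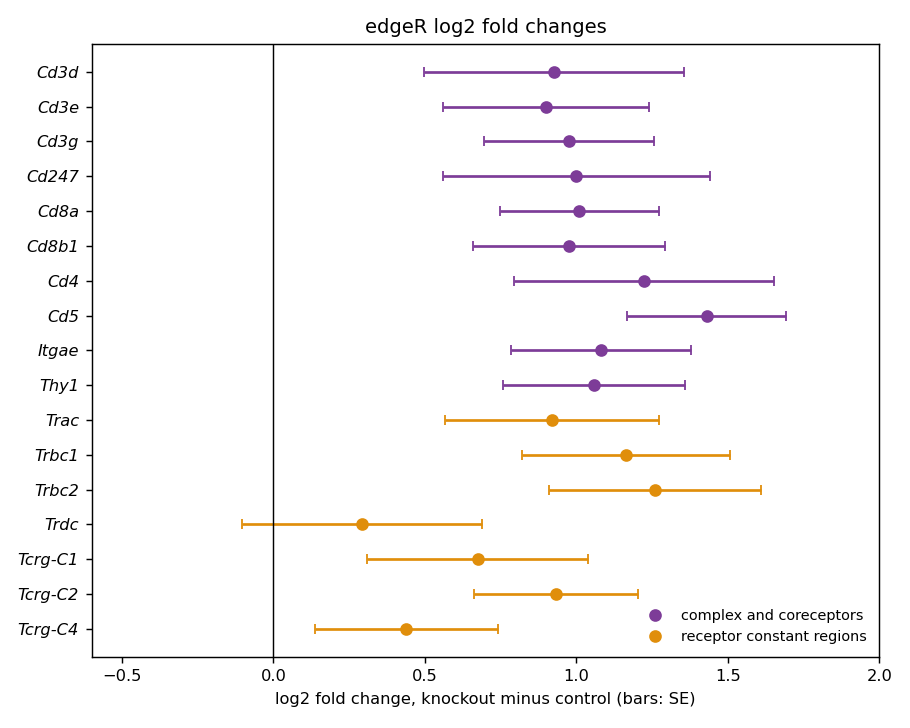
Log2 fold change of knockout over control from edgeR for the 10 genes and the 7 tested receptor constant genes, as points with bars of 1 SE. All values lie above 0, from 1.43 for Cd5 to 0.29 for Trdc, whose bar is the only one that crosses 0.

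Summing all variable, joining and constant genes of a locus gave values that rest on more reads. The beta locus (37 genes) had 12.6, 22.9 and 15.1 CPM in knockouts and 9.55, 7.54 and 6.03 CPM in controls, a mean ratio of 2.19. The alpha locus (160 genes) had 13.1, 23.5 and 14.4 CPM in knockouts and 12.0, 8.92 and 7.24 CPM in controls, a ratio of 1.81. The gamma locus (15 genes) had 29.8, 43.8 and 31.7 CPM in knockouts and 29.6, 17.3 and 15.2 CPM in controls, a ratio of 1.70. In each of these loci every knockout lay above every control, by little for the gamma locus, and the two-sided exact permutation p was 0.1, the smallest that 3 against 3 libraries can give. The delta locus (8 genes) had 5.51, 9.24 and 5.97 CPM in knockouts and 8.98, 3.88 and 3.68 CPM in controls, a ratio of 1.25 with overlap (exact permutation p = 0.5).

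**Figure D3:**
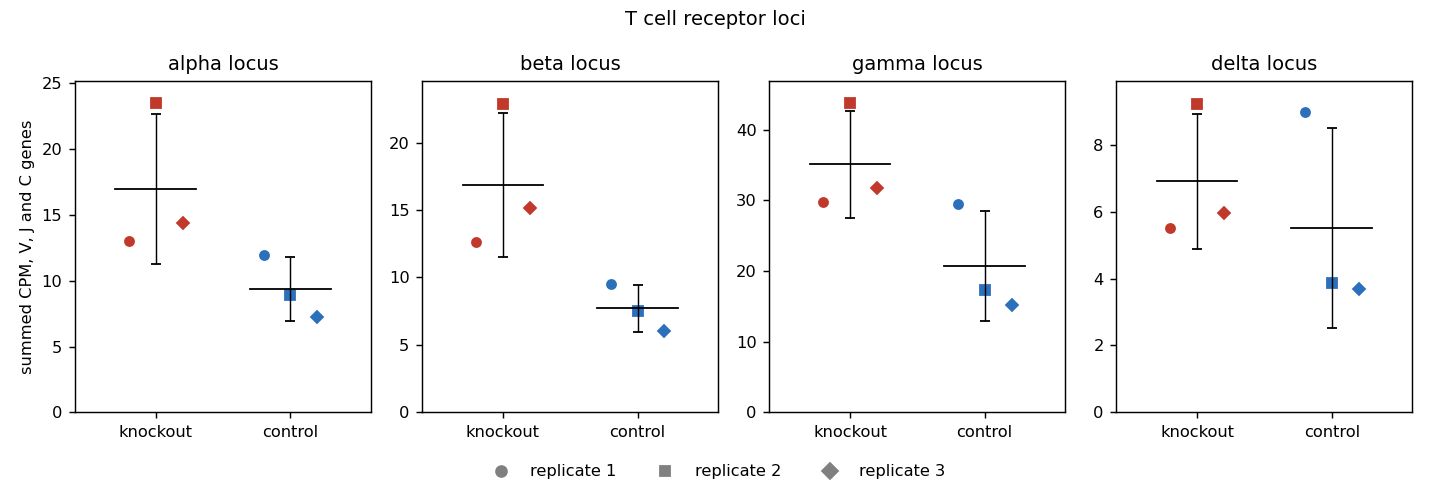
Summed level of the genes of each T cell receptor locus in CPM, with knockout libraries to the left of control libraries; points are libraries, lines means and bars SD. The beta, alpha and gamma loci do not overlap between the groups, and the delta locus does, through control replicate 1 at 8.98 CPM.

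Variable genes were counted to see how many were represented. Of 144 variable genes, 67 had a read in some library, and 41, 53 and 35 were detected in knockouts against 29, 36 and 40 in controls, with overlap. The summed variable genes stood at 11.5, 18.9 and 12.5 CPM in knockouts and 10.9, 6.67 and 6.99 CPM in controls. These sums did not overlap between groups (exact permutation p = 0.1), and detection counts move with depth, which was not equalised.

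Ratios within a library do not depend on scaling. The Cd8b1 to Cd8a read ratio, which bears on the balance of beta to alpha chain transcripts, was 0.0666, 0.0496 and 0.0611 in knockouts and 0.0657, 0.0506 and 0.0575 in controls. The groups overlapped fully, and the mean log2 ratios differed by 0.01 (−4.08 ± 0.22 in knockouts and −4.09 ± 0.18 in controls, SD, n = 3 each, exact permutation p = 0.9). The Cd4 to Cd8a ratio was 0.0860, 0.0720 and 0.0533 in knockouts and 0.0363, 0.0970 and 0.0521 in controls, a log2 difference of 0.27 (exact permutation p = 0.6). Control replicate 2 had the highest Cd4 to Cd8a ratio and control replicate 1 the lowest.

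The Itgae to Cd3e ratio was 1.52, 1.45 and 1.80 in knockouts and 1.41, 1.22 and 1.52 in controls, a log2 difference of 0.20 (exact permutation p = 0.2). The Trdc to Trac ratio, delta over alpha, was 0.756, 0.559 and 0.538 in knockouts and 1.19, 0.610 and 0.908 in controls, a log2 difference of −0.51 (exact permutation p = 0.2). Both pairs of groups overlapped. The labels state no pairing, and taking equal replicate numbers as pairs is an alternative only. So taken, the Itgae to Cd3e ratio was higher and the Trdc to Trac ratio lower in the knockout in 3 of 3 pairs. The paired exact permutation p was 0.25 for each, the smallest that 3 pairs can give. Leaving out control replicate 1 moved the Trdc to Trac difference to −0.29, and leaving out knockout replicate 3 or control replicate 2 moved that of Itgae to Cd3e to 0.11. With 3 libraries a group none of the 4 unpaired tests can go below 0.1, so they do not show that the ratios are alike.

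**Figure D4:**
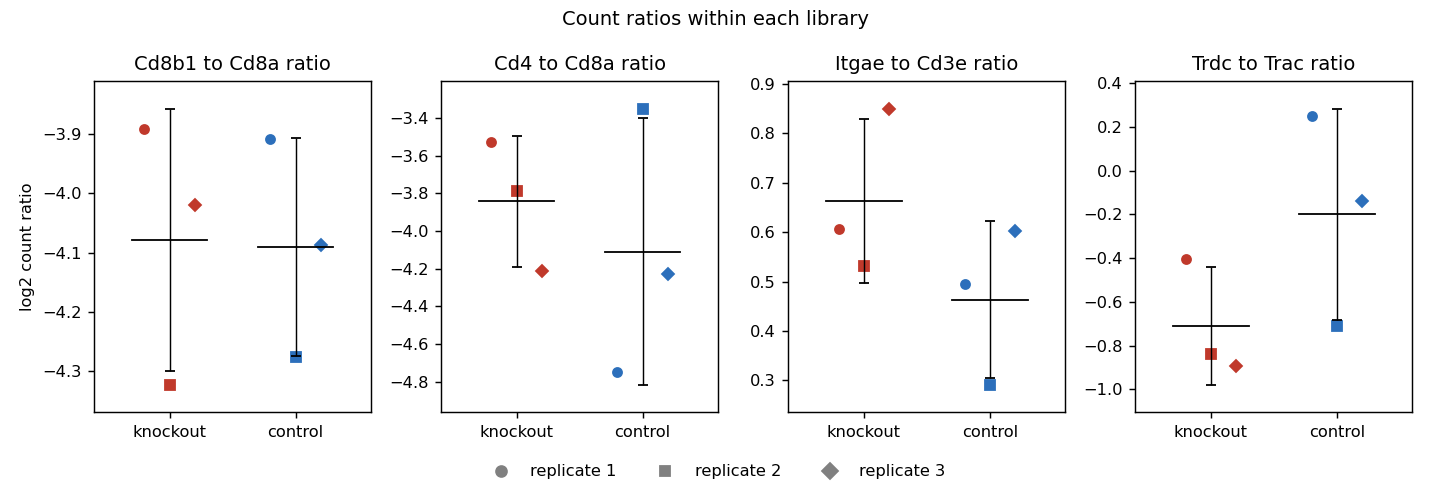
Log2 ratio of read counts for 4 gene pairs, each on its own axis, with knockout libraries to the left of control libraries; points are libraries, lines means and bars SD. The groups overlap in all 4 pairs, and the largest difference of means is that of Trdc to Trac, −0.51.

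The wider T cell gene lists gave no edgeR call. Among 17 tested genes of costimulation and inhibition, all 17 had positive log2 fold changes, against 50.7% of all genes, with a median of 1.00 against 0.01 over all genes. At an unadjusted p under 0.05, 12 of the 17 were higher, against 9.32% of all genes. Lag3, an inhibitory receptor that binds MHC class II, had 5.11, 8.45 and 5.97 CPM in knockouts and 3.17, 2.38 and 1.97 CPM in controls, without overlap (log2 fold change 1.38, SE 0.28, edgeR adjusted p = 0.117). Havcr2, the gene of the inhibitory receptor TIM-3, was low, with a mean of 0.927 ± 0.217 CPM in knockouts and 0.270 ± 0.0903 CPM in controls (SD, n = 3 each, edgeR adjusted p = 0.124). Cd7, an immunoglobulin-family protein of T and natural killer cells, had 20.9, 48.5 and 22.7 CPM in knockouts and 20.3, 12.6 and 9.21 CPM in controls.

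Homing and cytokine receptor genes, 14 tested, had 13 positive log2 fold changes and 1 negative (50.7% of all genes positive), with a median of 0.83. Of these 14, 9 were higher at an unadjusted p under 0.05, against 9.32% of all genes. Itgb7, the beta chain that pairs with the product of Itgae, had 10.4, 21.1 and 12.6 CPM in knockouts and 7.17, 5.29 and 3.85 CPM in controls, without overlap (log2 fold change 1.44, SE 0.33, edgeR adjusted p = 0.132). Gpr18, a receptor gene expressed in gut lymphocytes, had 3.14, 6.40 and 4.65 CPM in knockouts and 2.16, 1.62 and 1.46 CPM in controls (log2 fold change 1.44, SE 0.32, edgeR adjusted p = 0.124). Itga1, the collagen-binding integrin alpha chain, overlapped between groups, with 35.3 ± 6.97 CPM in knockouts and 28.4 ± 5.51 CPM in controls (SD, n = 3 each).

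Of 29 tested genes of receptor signalling, 23 had positive log2 fold changes and 6 negative (50.7% of all genes positive), with a median of 0.48. In this list 9 were higher at an unadjusted p under 0.05, against 9.32% of all genes. Sla, an adaptor that promotes turnover of the receptor complex, had 10.2, 9.72 and 7.29 CPM in knockouts and 5.54, 4.83 and 4.60 CPM in controls (log2 fold change 0.86, SE 0.19, edgeR adjusted p = 0.124). Zap70, the kinase that binds phosphorylated CD3 and zeta chains, had 5.67, 7.54 and 5.17 CPM in knockouts and 4.40, 3.54 and 2.64 CPM in controls (log2 fold change 0.80, SE 0.26, edgeR adjusted p = 0.212). Neither gene overlapped between groups. Csk, a kinase of most cell types that restrains LCK, averaged 82.2 ± 6.41 CPM in knockouts and 80.0 ± 3.44 CPM in controls (SD, n = 3 each).

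Not all signalling genes lay on the same side. Without knockout replicate 1, edgeR passed 1 of these 29 genes as higher, Sla, a smaller share than the 10% of all genes. It passed 4 as lower, Vav1, Fyb, Malt1 and Pag1, where 7.44% of all genes passed as lower. These 4 and the per-library values that follow were picked out after their values were seen. Vav1, an exchange factor of haematopoietic cells that tuft cells of the epithelium also express, had 22.1, 7.41 and 6.17 CPM in knockouts and 17.5, 16.8 and 20.6 CPM in controls, so knockout replicate 1 stood with the controls. Fyb, an adaptor gene, had 27.9, 10.6 and 9.05 CPM in knockouts and 30.8, 23.2 and 26.9 CPM in controls, in the same arrangement.

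The 9 tested T cell transcription factor genes had 6 positive and 3 negative log2 fold changes (50.7% of all genes positive), with a median of 0.73. Runx3, a factor of CD8 lineage cells, had 8.14, 9.54 and 6.89 CPM in knockouts and 5.98, 4.83 and 3.22 CPM in controls, without overlap (log2 fold change 0.81, SE 0.26, edgeR adjusted p = 0.211). Ikzf3, the Aiolos gene, which B cells express as well, had 28.0, 27.2 and 16.0 CPM in knockouts and 16.6, 10.4 and 9.75 CPM in controls, with overlap (log2 fold change 0.95, SE 0.29, edgeR adjusted p = 0.198). Zbtb7b, the CD4 lineage factor ThPOK, averaged 252 ± 26.7 CPM in knockouts and 244 ± 7.30 CPM in controls (SD, n = 3 each). That is far above Cd4 itself, at 2.84 CPM in knockouts and 1.21 CPM in controls, so the Zbtb7b level does not describe CD4 T cells. Which cells its reads came from was not tested.

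Markers of other cell types also varied between libraries. All tested genes were positive (50.7% of all genes) in the B and plasma cell (8 genes, median log2 fold change 1.06) and fibroblast (5, median 1.83) lists. The same held for the endothelial (3, median 1.32), smooth muscle (3, median 3.69) and epithelial (7, median 0.32) lists, and edgeR passed 0 in each. In knockout replicate 2, however, the mean log2 CPM of the fibroblast and smooth muscle lists lay below the control mean, at −0.49 and −0.71 relative to it. The median of the 10 T cell genes was 1.00, so a positive shift was not particular to them. Both tested natural killer and innate lymphoid markers were negative. The 8 B and plasma cell markers summed to 337, 149 and 327 CPM in knockouts and 33.3, 64.8 and 133 CPM in controls, with the lowest knockout sum in replicate 2, where the 10 T cell genes summed highest (116, 211 and 129 CPM in knockouts, against 97.9, 72.7 and 55.8 CPM in controls). Smooth muscle markers summed to 26.4, 0.958 and 55.6 CPM in knockouts and 0.792, 1.25 and 2.80 CPM in controls, and endothelial markers to 14.7, 4.14 and 4.49 CPM in knockouts and 2.73, 2.38 and 4.06 CPM in controls. Neural and glial markers summed to 7.23, 11.4 and 10.0 CPM in knockouts and 7.26, 5.08 and 4.98 CPM in controls, and Ret made up most of each sum (4.70, 9.54 and 7.85 CPM in knockouts, against 5.10, 3.54 and 3.26 CPM in controls). Snap25, the other gene of that list tested, had a log2 fold change of −0.02. Natural killer and innate lymphoid markers, of which Il22 was at 0 in every library and 2 of 7 were tested, summed to 56.2, 12.2 and 16.7 CPM in knockouts and 37.5, 51.0 and 56.4 CPM in controls. Nearly all of that sum came from Kit and Il1rl1, which other cells also express, and the natural killer genes Ncr1, Klrb1c and Klrb1b were at most at 0.0506, 0.607 and 0.240 CPM in any library, so the sum does not describe natural killer cells. The macrophage and dendritic cell markers, summed above, had 8 of 11 genes tested. All 8 had positive log2 fold changes (50.7% of all genes), with a median of 1.22. At an unadjusted edgeR p under 0.05, 5 were higher (9.32% of all genes), and after adjustment edgeR passed 0. Every knockout lay above every control for 4 of the 8 (10% of all genes). The part of these cells in the T cell gene values was not tested.

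**Figure D5:**
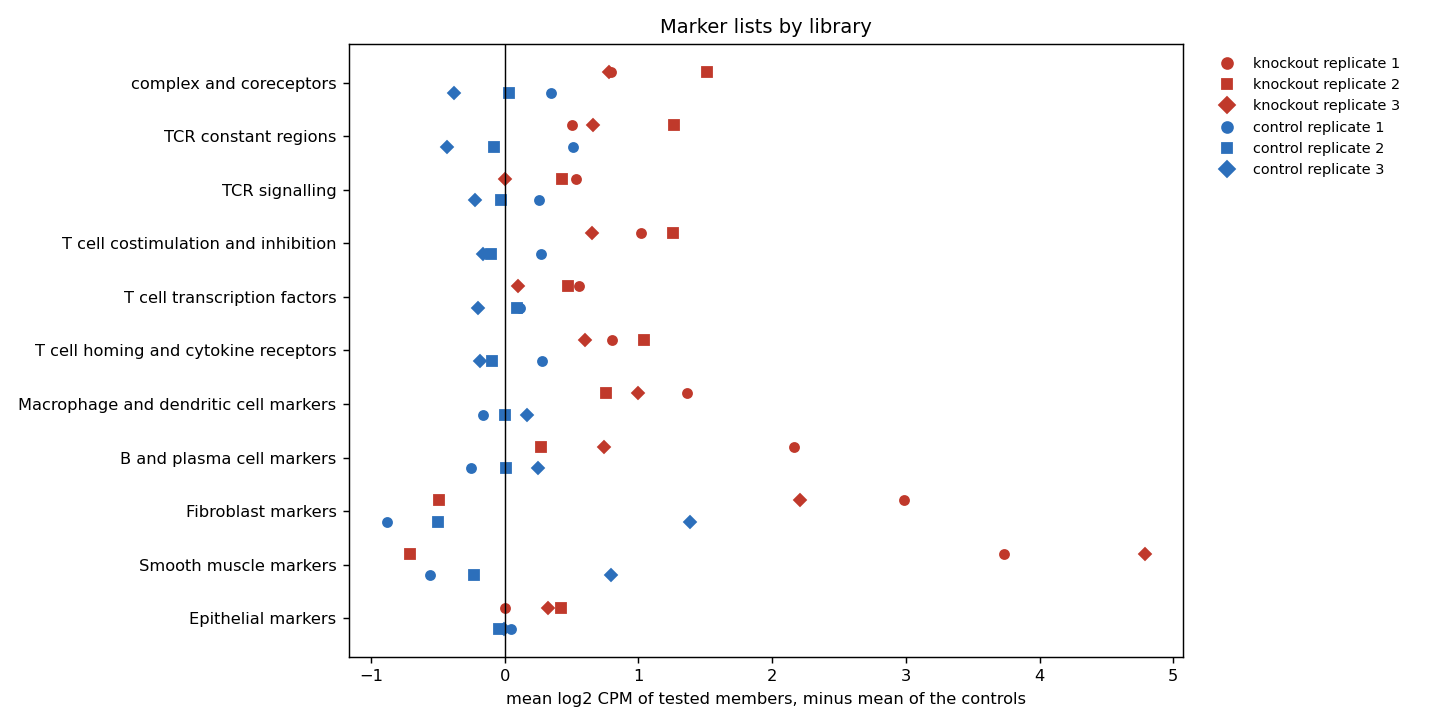
Level of each gene list in each library, as mean log2 CPM minus the mean of the control libraries, with knockout libraries drawn above control libraries and each replicate with its own marker. The 10 T cell genes lie at 0.80, 1.51 and 0.78 in knockouts and 0.34, 0.03 and −0.38 in controls, and the fibroblast and smooth muscle lists are lowest among knockouts in replicate 2.

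The genes whose levels were most like the CD3 genes were ranked by Pearson's r between log2 CPM and the mean log2 CPM of Cd3d, Cd3e, Cd3g and Cd247, over 6 libraries that share depth and composition and among 15058 genes outside the set. Arhgef3 (r = 0.999) averaged 44.0 ± 7.05 CPM in knockouts and 34.1 ± 5.01 CPM in controls, and Cd7 (r = 0.998) is described above. Ppp1r14d (r = 0.996), which encodes a phosphatase inhibitor, averaged 105 ± 5.51 CPM in knockouts and 95.1 ± 5.81 CPM in controls (SD, n = 3 each), a range far narrower than that of the CD3 genes. Gimap7 (r = 0.994), of a family of lymphocyte GTPases, and Sh2d2a (r = 0.989), an adaptor gene of T cells, followed at 5.99 ± 1.80 and 5.16 ± 2.08 CPM in knockouts and 3.66 ± 1.27 and 2.69 ± 0.928 CPM in controls. Among the genes of the set outside that mean, r was 0.980 for Itgae, 0.979 for Cd8a, 0.950 for Cd8b1, 0.873 for Cd5, 0.827 for Thy1 and 0.742 for Cd4. With 6 libraries and 15058 genes ranked, values of this size describe these libraries only.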

How the data were processed

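Whole-number read counts per gene were deposited by the authors in 1 table of 6 libraries, with no normalization. The submitters' processing notes name STAR 2.5.0a, Trim Galore, FastQC, bcl2fastq 2.17 and build mm10. No source used here gives the counter, strand setting or annotation release, and the labels name both poly-A selection and a ribosomal RNA removal kit. Counts were tested with edgeR 4.0.16 (R 4.3.3) by the quasi-likelihood F test, two-sided, with TMM scaling, filterByExpr (minimum count 10) and genotype as the only term, and p-values were adjusted by Benjamini-Hochberg over 15068 genes. CPM use TMM-scaled library sizes. A count of 3 reads was worth 0.120 to 0.152 CPM. Exact permutation tests over libraries were used for ratios (log2 of count + 0.5) and locus sums. Alternatives used DESeq2 1.42.0, limma 3.58.1 (voom), other scalings and filters, sex covariates, a replicate block and leaving out libraries. Each library is a different mouse. Same-numbered knockout and control libraries deviated weakly from their group means together (r = 0.117, 0.119 and 0.149, other pairs −0.143 to 0.00929), and the labels state no pairing. A fit with the replicate number as a block and paired ratio tests are given as alternatives, while the main tests are unpaired. No libraries within a group were duplicates (lowest chi-square per gene between them 23.8). The fit was tested on simulated data.

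The genes and lists were chosen with earlier results of these data known. Named genes were the 10 genes, the receptor constant genes, the 2 genes of lowest unadjusted p and the gene of highest CPM in each list, the 5 most like CD3, and Prkci. Outside this rule, Vav1, Fyb, Malt1, Pag1, Pou2f1, Il22 and natural killer markers were named after their values were seen. For the lists of other cell types mainly sums and counts are given, and not every gene the rule chose is named. Start-site sequences are RefSeq's (GRCm38.p6), and exon lengths and overlaps are from GENCODE M21 (mm10), matched by gene ID.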

Additional observations from a re-analysis of the deposited data

How the results depend on the processing

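Over 17 alternatives, the 170 log2 fold changes of the 10 genes ran from 0.40 to 1.83 and none turned negative. The count of these genes past the threshold, 0 with all libraries, was 1 with no filter on low counts (Cd5, adjusted p = 0.0471), 4 by DESeq2, and 0 to 4 when single libraries were left out, with 4 only without knockout replicate 1. It was 0 under the other alternatives, among them the replicate block, which changed no call of the 10 genes. Library totals without scaling moved the median log2 fold change of all genes to −0.10, against 0.01, and that of the 10 genes to 0.89.

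Counts over all genes, 9 in the reported fit, were 16 with library totals, 284 with no filter, 839 by DESeq2, 5 by limma-voom, 4 with the series-text sex as covariate, 0 with the replicate block that treats equal numbers as pairs, and 0 to 2700 when single libraries were left out (2700 without knockout replicate 1). Without the 3 libraries whose Xist and Ddx3y went against the series text, an alternative chosen after seeing the data, the count was 0, with a lone control assumed to vary like the knockouts. The newer edgeR dispersion was also added after seeing the data.

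DESeq2 passed 3 receptor constant, 1 signalling, 3 costimulation, 1 transcription factor and 4 homing genes as higher, where 3.61% of all genes passed, so that 1 of 29 signalling genes is near that share, and with no filter 1 costimulation and 1 homing gene passed. Leaving out single libraries gave 0 to 4, 0 to 5, 0 to 5, 0 to 1 and 0 to 4 in the same order of lists, each highest without knockout replicate 1. The Cd8b1 to Cd8a difference was −0.024 with an added count of 2 and −0.081 to 0.13 with single libraries left out, and those of Cd4 to Cd8a, Itgae to Cd3e and Trdc to Trac were −0.053 to 0.65, 0.11 to 0.27 and −0.77 to −0.29. Trdc turned to −0.29 without the 3 libraries, and Csk and Zbtb7b to −0.066 and −0.057 with library totals. With single libraries left out, Csk ran from −0.028 to 0.088 and Zbtb7b from −0.036 to 0.13. The causes were not tested. Depth limits Cd247, Cd4, Cd8b1 and Cd5 most, which had as few as 18 to 22 reads in a control.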
